A study of Homo sapiens with 21 samples.

Results

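Glycolysis turns glucose into pyruvate in the cytosol, and the hypoxia response adjusts it to the supply of oxygen. The 40 genes described here were given as a list of symbols: 24 glycolytic enzymes, transporters and regulators, 5 subunits and regulators of the hypoxia-inducible factors (HIFs), and 11 HIF targets. The list was matched to the gene symbols of an expression table of 27142 genes, and all 40 were found. Of these, 39 had at least 1 FPKM (fragments per kilobase of exon, scaled to the reads of the library, a level corrected for gene length) in at least 3 of 21 libraries, and these 39 were tested. CA9 was left out of the tests by that filter. SLC16A3 came through it with 9 libraries at or above 1 FPKM.

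Glucose enters cells through GLUT transporters and is trapped by hexokinases. Phosphofructokinase commits it to glycolysis, and lactate dehydrogenase and monocarboxylate transporters dispose of the end product as lactate. HIF1A and EPAS1 encode alpha subunits that pair with ARNT and bind short DNA elements near many glycolytic genes. With oxygen present, the prolyl hydroxylases encoded by EGLN1 and EGLN3 mark the alpha subunits for destruction, so that HIF activity is set mainly at the protein level.

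The cells were HEK 293FT, a human embryonic kidney line carrying the SV40 large T antigen and kept at passages 8 to 12. Plasmids were transfected with a lipid reagent, and RNA was taken 48 h later. A short hairpin RNA (shRNA) is processed into a small RNA that directs Argonaute to a transcript, and RfxCasR is a CRISPR nuclease that cuts RNA at sites chosen by a guide RNA (gRNA). There were 7 groups of 3 libraries: shRNA NT (non-targeting), shRNA ANXA4, shRNA B4GALNT1, RfxCasR NT gRNA, RfxCasR B4GALNT1 gRNA, RfxCasR NT array and RfxCasR ANXA4 array, where an array carries several guides. No untransfected cells were among the samples, so each control also carried a plasmid. The title of the series asks about the specificity of RfxCasR and of matching shRNAs. The labels number the replicates without saying whether they were separate cultures, so that the p-values take in only the spread among these libraries, which may be technical.

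The promoters below belong to the 4 genes given with the list as its markers (ALDOA, GAPDH, LDHA and HK2) and to BHLHE40 and ANKRD37, which among the 11 listed HIF targets differed most between array and single-guide libraries. They are shown because HIF is known to act through the letters ACGTG or GCGTG. Each run holds the 250 bases before the gene's start on its own strand, from RefSeq (GRCh38.p14), and capitals mark ACGTG or GCGTG read on either strand. The starts are those of RefSeq and need not be those of the transcripts in the deposited table. In the deposited table, whose positions are on hg19, the annotated transcripts lay at chr16:30076994-30081741 (ALDOA), chr12:6643571-6647541 (GAPDH), chr11:18415936-18429765 (LDHA), chr2:75059782-75120481 (HK2), chr3:5021097-5026865 (BHLHE40) and chr4:186317840-186321399 (ANKRD37), all on the plus strand.
ALDOA, chr16:30064029-30064278 plus strand: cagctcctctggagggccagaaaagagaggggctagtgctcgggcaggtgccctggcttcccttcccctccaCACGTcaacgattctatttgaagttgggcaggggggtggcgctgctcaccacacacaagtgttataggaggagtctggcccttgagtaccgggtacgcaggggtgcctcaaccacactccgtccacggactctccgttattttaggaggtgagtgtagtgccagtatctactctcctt
GAPDH, chr12:6535014-6535263 plus strand: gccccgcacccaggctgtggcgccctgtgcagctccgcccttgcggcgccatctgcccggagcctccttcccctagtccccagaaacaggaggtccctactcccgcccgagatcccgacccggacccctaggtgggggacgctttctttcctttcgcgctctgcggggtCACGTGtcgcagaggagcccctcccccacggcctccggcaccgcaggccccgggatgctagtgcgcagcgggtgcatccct
LDHA, chr11:18394313-18394562 plus strand: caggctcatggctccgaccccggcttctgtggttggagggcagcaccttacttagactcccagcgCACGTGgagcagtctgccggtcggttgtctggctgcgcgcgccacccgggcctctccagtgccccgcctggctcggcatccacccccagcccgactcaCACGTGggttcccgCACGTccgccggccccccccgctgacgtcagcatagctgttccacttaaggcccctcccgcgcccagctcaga
HK2, chr2:74833877-74834126 plus strand: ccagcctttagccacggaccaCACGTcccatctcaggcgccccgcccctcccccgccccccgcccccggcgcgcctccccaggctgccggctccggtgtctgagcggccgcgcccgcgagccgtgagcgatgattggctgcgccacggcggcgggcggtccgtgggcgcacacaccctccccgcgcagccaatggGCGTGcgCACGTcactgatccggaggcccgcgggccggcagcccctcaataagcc
BHLHE40, chr3:4979187-4979436 plus strand: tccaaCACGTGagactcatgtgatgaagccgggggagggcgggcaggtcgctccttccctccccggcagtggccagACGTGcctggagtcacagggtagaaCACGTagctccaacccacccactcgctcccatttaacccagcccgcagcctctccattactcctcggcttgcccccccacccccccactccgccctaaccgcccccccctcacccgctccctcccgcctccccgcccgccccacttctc
ANKRD37, chr4:185396591-185396840 plus strand: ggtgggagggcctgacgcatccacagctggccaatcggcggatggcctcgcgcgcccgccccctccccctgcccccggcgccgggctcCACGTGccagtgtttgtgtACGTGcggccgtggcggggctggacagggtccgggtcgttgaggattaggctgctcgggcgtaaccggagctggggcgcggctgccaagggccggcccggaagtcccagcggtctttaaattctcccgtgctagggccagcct
In the LDHA window ACGTG occurs 5 times, counting both strands, and 2 of these places spell CACGTG, a palindrome that counts once on each strand. BHLHE40 has 4 such matches and ANKRD37 has 3. GAPDH has 2 from a single CACGTG, and ALDOA has 1. HK2 has 2 ACGTG and 1 GCGTG. Promoters of 35 of the 40 genes were matched by symbol. ACGTG or GCGTG was found in 22 of them (62.9%), against 58.6% of the 9985 matched promoters of genes tested and 43.2% of all 35116 RefSeq promoters. By class it was found in 12 of 22 glycolytic genes (54.5%) and in 10 of 13 HIF regulators and targets (76.9%). ACGTG alone was found in 14 of the 35, against 23.8% of the promoters of genes tested and 18.5% of all. Its share was 36.4% in the glycolytic genes and 46.2% in the HIF regulators and targets. A match is a string of letters and was not tested as a site.

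The 6 array libraries held 34.67 to 39.48 M reads, as worked back from FPKM and exon length, and the other 15 held 21.35 to 30.66 M. ANXA4 fell by 59.3% with its shRNA. B4GALNT1 fell by 31.8% with its shRNA and by 62.4% with its gRNA. In the array groups the target and the labels disagreed. ANXA4 lay between 6.76 and 7.22 FPKM in the libraries labelled ANXA4 array and between 2.54 and 3.34 in those labelled NT array, and the authors' deposited table gives the opposite sign (-1.21 log2). Of 13657 genes compared with that table, 6.81% had the same sign, as did 3 of the 39 members tested. In the other comparisons that the authors deposited, 93% to 98% of genes had the same sign. For the arrays, groups are therefore named as labelled, and directions between them may be turned around. Of 11 markers of HEK identity, 9 were at 1 FPKM or more in every library. None of 6 endothelial markers reached 1 FPKM in any library, the blood markers PTPRC and CD3E stayed at or below 0.077 FPKM, and the fibroblast markers DCN and THY1 at or below 0.098.

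Most of the 24 glycolytic genes were abundant. Per length, GAPDH (1459 to 3097 FPKM), ENO1 (1839 to 2544), ALDOA (820 to 1793), LDHB, TPI1, PKM, LDHA and PGK1 made up the top, and none was below 523 FPKM (PGK1) in any library. The 24 genes together took 2.52% ± 0.00856 (SD, n = 3) of all FPKM with the NT shRNA, and from 2.80% to 3.09% in the other 6 group means. The 5 HIF regulators and 11 targets were lower, and their summed level ran from 387 to 609 FPKM. The heat map by library shows 3 blocks that stand apart, in different genes: the NT shRNA, the ANXA4 shRNA and the arrays.

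**Figure D1:**
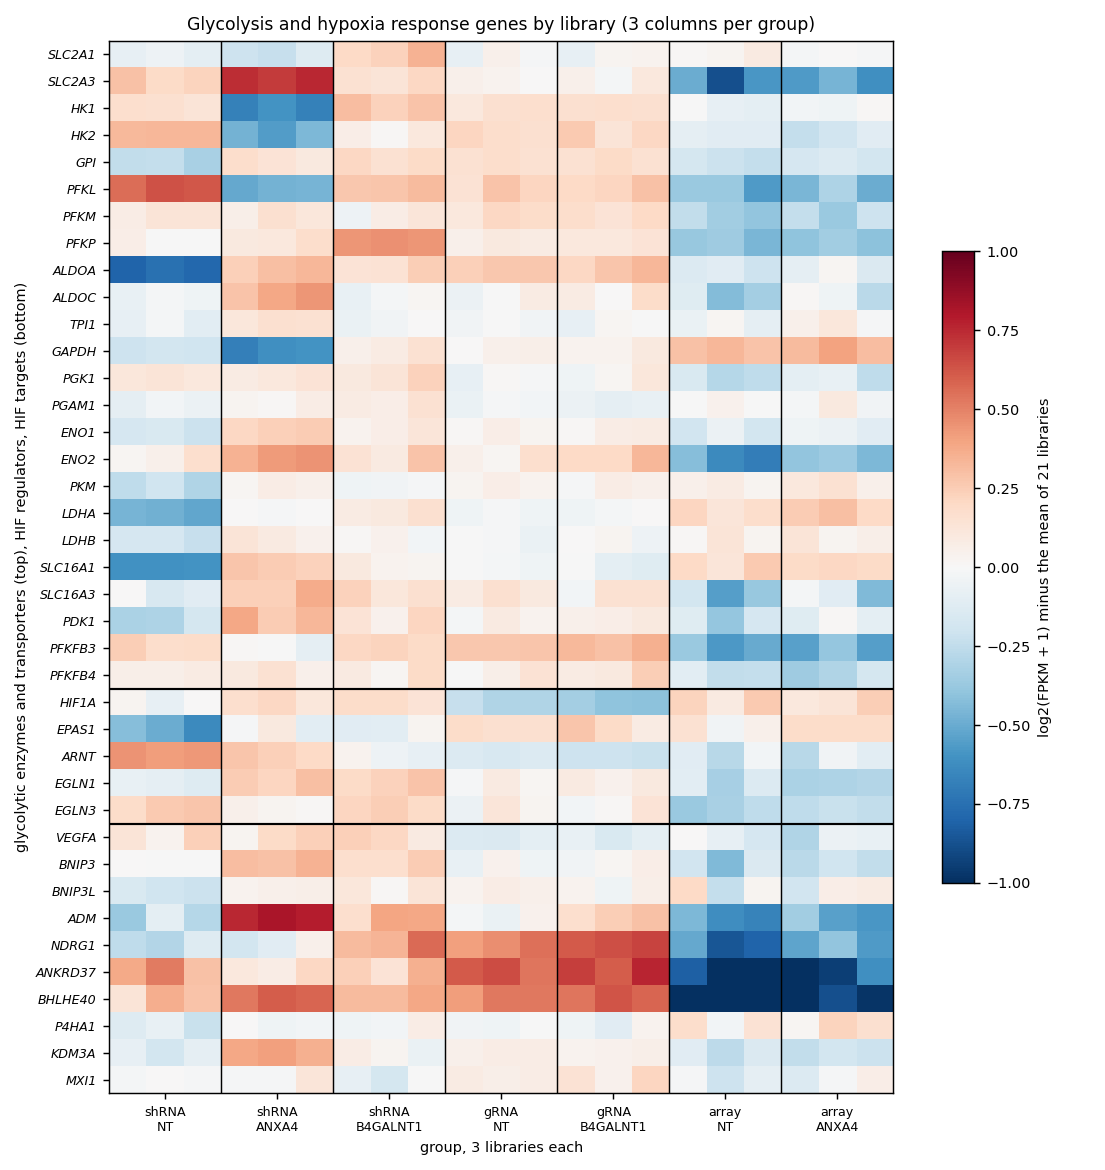
Level of each of the 39 tested genes (rows) in each of 21 libraries (columns, 3 per group), as log2(FPKM + 1) minus the gene's mean over all libraries, with colours cut off at 1 below and above. ALDOA and SLC16A1 are lowest in the 3 NT shRNA columns, ADM and SLC2A3 highest in the 3 ANXA4 shRNA columns, and BHLHE40 and ANKRD37 lowest in the 6 array columns; array columns are named as labelled.

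Levels were compared by limma on log2(FPKM + 1), a scale that understates changes of low genes, over 13679 genes, with calls made below 0.05 after Benjamini-Hochberg adjustment. With the ANXA4 shRNA, 23 of the 39 genes rose and 8 fell. Over all genes tested, 25.6% were called higher and 26.3% lower, 51.8% in all. The median log2 difference was 0.21 over the 39 genes and -0.008 over all genes. The groups did not overlap in 33 of the 39 genes, against 60.9% of all genes. Among the 24 glycolytic genes 15 rose and 6 fell, and among 15 HIF genes 8 rose and 2 fell. With the B4GALNT1 shRNA, 22 rose and 3 fell, where 18.4% of all genes were called higher and 26% lower, 44.4% in all. The median was 0.16 over the 39 genes and -0.038 over all genes. Here 13 glycolytic genes rose and 2 fell, and 9 HIF genes rose and 1 fell. When each library was centred on its median, the B4GALNT1 shRNA gave 3162 higher and 2775 lower calls over all genes, in place of 2523 and 3554, and 23 higher and 3 lower among the 39. Both comparisons use the same 3 NT shRNA libraries, so they are not independent of each other.

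The glucose transporters SLC2A3 and SLC2A1 were highest with different shRNAs. SLC2A3, which encodes the high-affinity transporter GLUT3, was at 76.8, 71.5 and 73.2 FPKM with the NT shRNA and at 105, 102 and 106 with the ANXA4 shRNA. It rose by 0.49 log2 (SE 0.067, limma adjusted p = 5.08e-06). In the B4GALNT1 shRNA libraries it was at 69.7, 68.4 and 72.6 FPKM and was not called (-0.072 log2). SLC2A1, for the widespread transporter GLUT1, was at 57.2, 58.5 and 56.6 FPKM with the NT shRNA and at 69.9, 71.5 and 77.7 with the B4GALNT1 shRNA, a rise of 0.34 log2. With the ANXA4 shRNA it was at 52.4, 51.7 and 55.5. This fall of 0.11 log2 was called at limma adjusted p = 0.0468 and lost its call under 11 of the other settings, among them leaving out any NT shRNA replicate, ANXA4 shRNA replicate 1 or ANXA4 shRNA replicate 2 (limma adjusted p = 0.062 to 0.156). The groups did not overlap in any of the 3 changes that were called.

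Hexokinases phosphorylate glucose on entry. HK1 was at 71.6, 71.1 and 69.4 FPKM with the NT shRNA and at 39.5, 41.7 and 39.3 with the ANXA4 shRNA, a fall of 0.80 log2 (SE 0.033, limma adjusted p = 3.93e-13). HK2 fell from 24.9, 25.0 and 25.0 to 13.9, 13.0 and 14.1 FPKM, by 0.83 log2. No library of another group was as low as the 3 ANXA4 shRNA libraries in either gene. With the B4GALNT1 shRNA the genes parted. HK1 was at 78.9, 74.6 and 77.6 FPKM and rose by 0.12 log2, while HK2 was at 20.6, 19.8 and 21.2 and fell by 0.27 log2. GPI, which isomerises glucose 6-phosphate, rose with both shRNAs (0.41 and 0.45 log2), from 73.9 to 78.5 FPKM over the NT shRNA libraries to 99.3 to 105 and 103 to 107.

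Phosphofructokinase is the main control step of the pathway and has liver, muscle and platelet forms. PFKL, the liver form, was at 86.1, 91.1 and 90.0 FPKM with the NT shRNA and at 40.5, 41.6 and 41.8 with the ANXA4 shRNA. This was the largest fall among the 39 genes in that comparison (-1.09 log2, SE 0.053, limma adjusted p = 3.84e-12). Under the B4GALNT1 shRNA it fell by 0.32 log2, to 70.2, 70.7 and 72.7. PFKP, the platelet form, rose by 0.43 log2 with the B4GALNT1 shRNA, from no more than 71.7 FPKM in the control libraries to 93.0, 94.0 and 93.2. With the ANXA4 shRNA PFKP was at 73.1, 73.5 and 77.2, a rise of 0.11 log2 that lost its call when NT shRNA replicate 2, NT shRNA replicate 3 or ANXA4 shRNA replicate 3 was left out (adjusted p = 0.05 to 0.0724). PFKM, the muscle form, was called in neither (-0.001 and -0.063 log2). PFKFB3 and PFKFB4 make and remove the sugar phosphate that activates phosphofructokinase. PFKFB3 fell with the ANXA4 shRNA, from 40.5 to 42.7 FPKM to 33.5 to 36.1 (-0.23 log2). PFKFB4 was not called with either shRNA (0.029 and 0.029 log2).

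Aldolase A, which splits fructose 1,6-bisphosphate, had the largest rise of the list on the log2(FPKM + 1) scale; in the authors' deposited table ADM rose more with the ANXA4 shRNA (1.16 log2, against 1.08 for ALDOA). ALDOA was at 820, 849 and 828 FPKM in the 3 NT shRNA libraries. The level was 1683, 1759 and 1793 with the ANXA4 shRNA and 1565, 1580 and 1694 with the B4GALNT1 shRNA. The NT shRNA libraries lay below every other library, whose ALDOA ran from 1234 FPKM upwards. The differences were 1.07 log2 (SE 0.042, limma adjusted p = 2.07e-13) and 0.95 log2 (SE 0.042, limma adjusted p = 1.72e-12). ALDOC, the aldolase of brain, rose with the ANXA4 shRNA by 0.42 log2, from 47.7 to 49.5 FPKM to 61.6 to 68.8, and was not called with the B4GALNT1 shRNA (0.021 log2). TPI1, triosephosphate isomerase, rose by 0.21 log2 with the ANXA4 shRNA and was not called with the B4GALNT1 shRNA (0.035 log2).

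GAPDH, the glyceraldehyde 3-phosphate dehydrogenase often used as a reference gene, moved in opposite directions. It was at 2034, 2069 and 2040 FPKM with the NT shRNA. With the ANXA4 shRNA it was at 1459, 1528 and 1548, and fell by 0.44 log2 (SE 0.032, limma adjusted p = 1.43e-09). Its level was 2431, 2479 and 2604 with the B4GALNT1 shRNA, and rose by 0.29 log2 (SE 0.032, limma adjusted p = 6.55e-07). Set against GAPDH, ANXA4 was 44.9% lower with its shRNA, in place of 59.3% by FPKM. In the same way B4GALNT1 was 44.1% lower with its shRNA, in place of 31.8%, and 62.8% lower with its gRNA, in place of 62.4%.

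Of 5 further genes in the lower part of the pathway, ENO1 and PKM rose with both shRNAs under every setting run. ENO1, enolase 1, rose by 0.41 log2 with the ANXA4 shRNA and by 0.25 with the B4GALNT1 shRNA. PKM, pyruvate kinase, rose by 0.30 and 0.22 log2. PGK1, phosphoglycerate kinase, was called in neither (-0.007 and 0.039 log2). PGAM1, phosphoglycerate mutase, rose by 0.16 log2 with the B4GALNT1 shRNA; its 0.096 log2 rise with the ANXA4 shRNA lost its call on recovered reads (adjusted p = 0.0537) and when NT shRNA replicate 1 or 3 or ANXA4 shRNA replicate 1 or 3 was left out (limma adjusted p = 0.0515 to 0.114). ENO2, the neuronal enolase, rose with the ANXA4 shRNA by 0.33 log2 and was not called with the other (0.095 log2).

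LDHA, SLC16A1 and PDK1, which act on pyruvate and lactate, rose with both shRNAs. LDHA, the lactate dehydrogenase subunit that favours lactate formation, was at 678, 671 and 655 FPKM with the NT shRNA, at 939, 931 and 940 with the ANXA4 shRNA, and at 993, 1005 and 1047 with the B4GALNT1 shRNA. It rose by 0.49 log2 (SE 0.03, limma adjusted p = 1.05e-10) and by 0.60 log2 (SE 0.03, limma adjusted p = 1.11e-11). LDHB rose by 0.28 and 0.20 log2, the second of which was lost after quantile normalization (0.087 log2, adjusted p = 0.0815). SLC16A1, which encodes the lactate carrier MCT1, rose from 52.7, 52.8 and 52.9 FPKM to 98.0, 96.2 and 94.7 with the ANXA4 shRNA (0.85 log2) and to 86.3, 82.9 and 82.3 with the B4GALNT1 shRNA (0.66 log2). PDK1, a kinase that inhibits pyruvate dehydrogenase, rose from 20.4, 20.5 and 22.6 FPKM to 33.7, 30.8 and 32.5 (0.59 log2) and to 28.2, 26.4 and 29.9 (0.40 log2). SLC16A3, for the lactate exporter MCT4, stayed near 1 FPKM. It was at 0.871, 0.67 and 0.723 FPKM with the NT shRNA and at 1.2, 1.2 and 1.41 with the ANXA4 shRNA (0.37 log2, called), and its 0.26 log2 with the B4GALNT1 shRNA was not called.

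**Figure D2:**
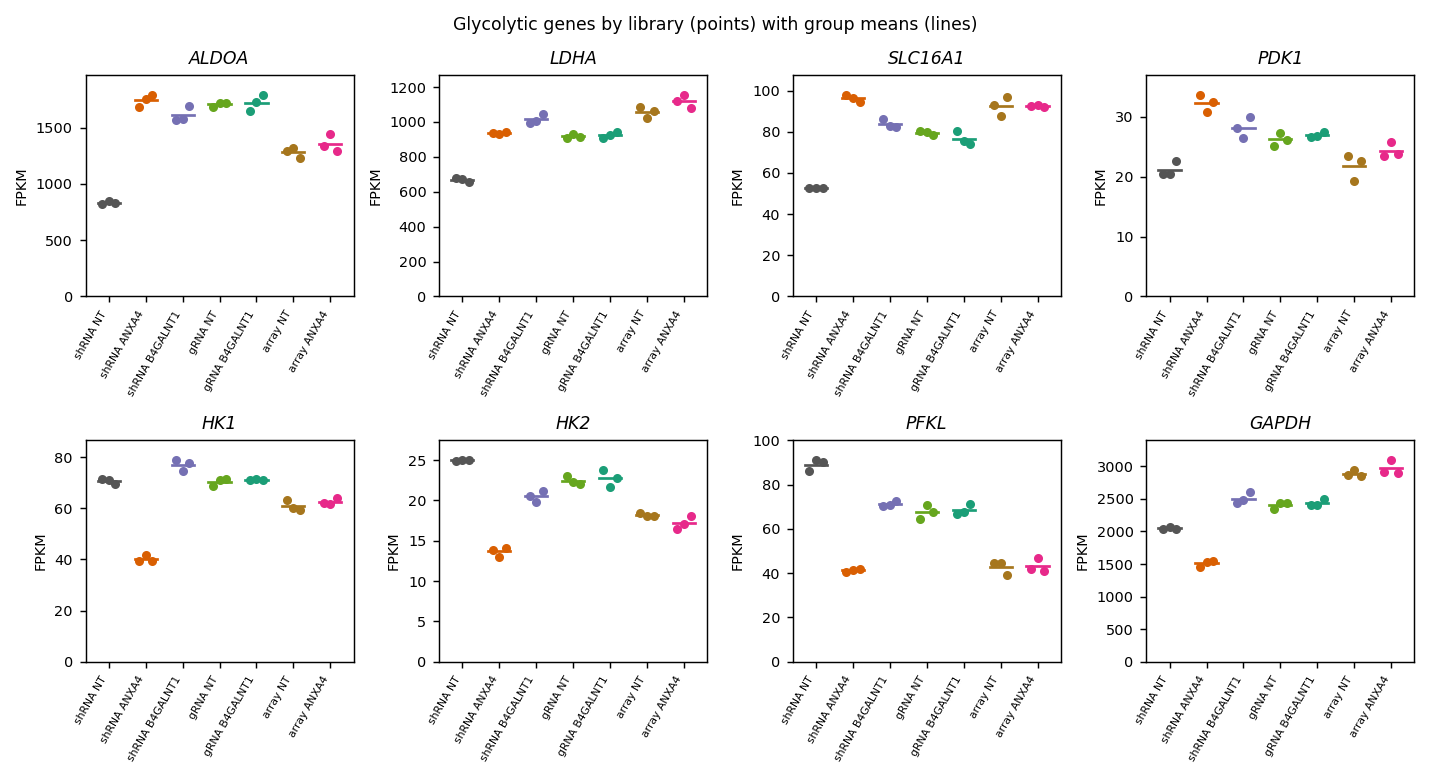
FPKM of 8 glycolytic genes in each library (points) with group means (lines), for 7 groups of 3; each vertical axis starts at 0, and array groups are named as labelled. ALDOA, LDHA and SLC16A1 are lowest in the 3 NT shRNA libraries, while HK1, HK2 and GAPDH are lowest in the 3 ANXA4 shRNA libraries, GAPDH at 1459 to 1548 FPKM.

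Among the HIF subunits, EPAS1 (HIF-2 alpha) was at 3.21, 3.02 and 2.64 FPKM with the NT shRNA, below all other libraries. It was at 4.62, 5.06 and 4.26 with the ANXA4 shRNA and at 4.25, 4.27 and 4.78 with the B4GALNT1 shRNA. The rises were 0.51 and 0.46 log2 (SE 0.069 each, limma adjusted p = 4.32e-06 and 2.36e-05). HIF1A rose by 0.18 log2 in both comparisons, from 32.3 to 34.9 FPKM to 37.2 to 39.6 and 37.8 to 39.0. ARNT, the shared partner, was at 21.1, 20.6 and 20.9 FPKM with the NT shRNA, above all other libraries. It fell by 0.20 log2 with the ANXA4 shRNA and by 0.47 log2 with the B4GALNT1 shRNA. The hydroxylase gene EGLN1 rose by 0.35 and 0.34 log2. EGLN3 fell by 0.21 log2 with the ANXA4 shRNA, from 11.6 to 12.5 FPKM to 10.2 to 10.5, and was not called with the B4GALNT1 shRNA (-0.026 log2).

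Of 10 HIF targets tested, 5 rose with the ANXA4 shRNA, 6 rose with the B4GALNT1 shRNA, and 0 fell in either. Over all genes the shares were 25.6% higher and 26.3% lower, and 18.4% and 26%. ADM, the vasodilator peptide adrenomedullin, was at 5.76, 7.17 and 6.15 FPKM with the NT shRNA and at 13.7, 14.4 and 14.0 with the ANXA4 shRNA, which was above every other library. It rose by 1.03 log2 (SE 0.08, limma adjusted p = 2.52e-09). ADM was at 8.83, 10.5 and 10.4 with the B4GALNT1 shRNA and rose by 0.57 log2. KDM3A, a histone H3 lysine demethylase, rose from 23.1, 21.5 and 22.9 FPKM to 32.4, 32.8 and 31.6 with the ANXA4 shRNA (0.50 log2). Its 0.13 log2 rise with the B4GALNT1 shRNA lost its call when NT shRNA replicate 2 or B4GALNT1 shRNA replicate 1 or 2 was left out (limma adjusted p = 0.0541 to 0.0955). The mitophagy receptor genes BNIP3 and BNIP3L rose with the ANXA4 shRNA by 0.32 and 0.24 log2, and with the B4GALNT1 shRNA by 0.20 and 0.27. The BNIP3 rise with the B4GALNT1 shRNA was lost after quantile normalization (0.12 log2, adjusted p = 0.119), and the BNIP3L rise with the ANXA4 shRNA was lost without NT shRNA replicate 3 (adjusted p = 0.0519).

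NDRG1, BHLHE40 and P4HA1 were called with 1 of the shRNAs. NDRG1, a stress-induced gene, was at 41.0, 39.8 and 44.8 FPKM with the NT shRNA and at 61.5, 62.5 and 73.0 with the B4GALNT1 shRNA (0.64 log2), against 43.1, 45.4 and 50.8 with the ANXA4 shRNA (0.15 log2, not called). BHLHE40, a transcriptional repressor, was at 44.6, 52.7 and 49.9 FPKM with the NT shRNA and at 59.1, 62.5 and 61.3 with the ANXA4 shRNA (0.31 log2), against 50.9, 50.9 and 53.7 with the B4GALNT1 shRNA (0.081 log2, not called). P4HA1, a collagen prolyl hydroxylase, was called with the B4GALNT1 shRNA (0.15 log2, limma adjusted p = 0.0438) and not with the ANXA4 shRNA (0.12 log2, limma adjusted p = 0.083), and the difference between the shRNAs was not called (-0.025 log2, limma adjusted p = 0.748). The call was lost under 8 settings at the same threshold, among them leaving out NT shRNA replicate 1 or 3 or B4GALNT1 shRNA replicate 2 or 3 (limma adjusted p = 0.0578 to 0.194). VEGFA, the vascular growth factor, ran from 8.81 to 13.3 FPKM over all libraries and was not called in either comparison (0.018 and 0.046 log2). ANKRD37 and MXI1 were also not called. In all, 6 of the 39 genes were called in none of the 4 comparisons of a target with its own control: PFKM, PGK1, PFKFB4, VEGFA, ANKRD37 and MXI1, with differences from -0.27 to 0.22 log2.

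**Figure D3:**
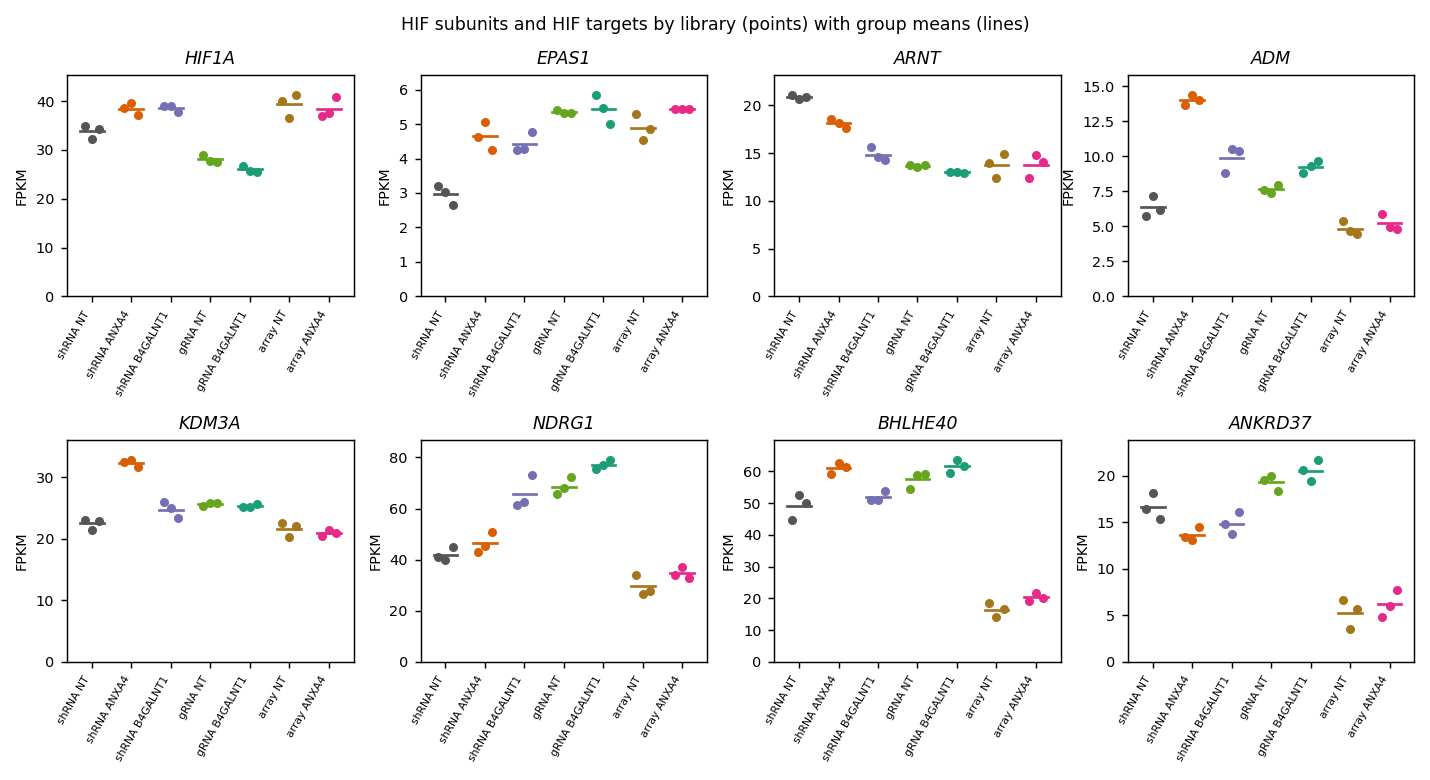
FPKM of 3 HIF subunits and 5 HIF targets in each library (points) with group means (lines), for 7 groups of 3; each vertical axis starts at 0, and array groups are named as labelled. EPAS1 is lowest and ARNT highest in the NT shRNA libraries, ADM and KDM3A are highest with the ANXA4 shRNA, and BHLHE40 is at 14.0 to 21.7 FPKM in the 6 array libraries.

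RfxCasR with the B4GALNT1 gRNA gave a different picture: limma called 0 of the 39 genes, and B4GALNT1 itself was the 1 gene called over the whole table (0.00731%). At an unadjusted p under 0.05 there were 3 genes of the 39 (ENO2, HIF1A and ADM) and 3.82% of all genes. Voom on recovered reads and the authors' deposited table also called 0 of the 39. ALDOA was at 1684, 1720 and 1720 FPKM with the NT gRNA and at 1650, 1727 and 1791 with the B4GALNT1 gRNA. The difference was 0.012 log2 (95% interval -0.076 to 0.099). GAPDH (0.018 log2), LDHA (0.011) and HK2 (0.017) likewise overlapped between the groups. ADM had the largest difference, from 7.61, 7.35 and 7.99 FPKM to 8.79, 9.33 and 9.67 (0.25 log2, limma adjusted p = 1). The 95% intervals of the 39 differences lay between -0.26 and 0.41 log2. The groups did not overlap in 8 of the 39 genes, where 11.8% of all genes did not overlap. Of the 39 differences 30 were positive, with a median of 0.017 log2, against -0.003 over all genes. The B4GALNT1 gRNA libraries lay above all other libraries in PFKFB3 and NDRG1 (5.13%, against 0.475% of all genes). They lay below all others in HIF1A (2.56%, against 0.27%).

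Between the libraries labelled ANXA4 array and NT array, limma also called 0 of the 39 genes, with 3 calls over the whole table (0.0219%). At an unadjusted p under 0.05 there were 3 of the 39 (ENO2, NDRG1 and BHLHE40) and 5.24% of all genes. Voom and the authors' deposited table called 0 of the 39. BHLHE40 was at 18.4, 14.0 and 16.6 FPKM in the libraries labelled NT array and at 19.3, 21.7 and 20.1 in those labelled ANXA4 array (0.31 log2, limma adjusted p = 0.826). ALDOA (0.08 log2), GAPDH (0.039), LDHA (0.082) and HK2 (-0.075) were not called, and the authors' deposited table gives each of these the opposite sign. The 95% intervals of the 39 differences lay between -0.27 and 0.68 log2, the widest for ANKRD37. The groups did not overlap in 4 of the 39 genes, against 10.3% of all genes.

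**Figure D4:**
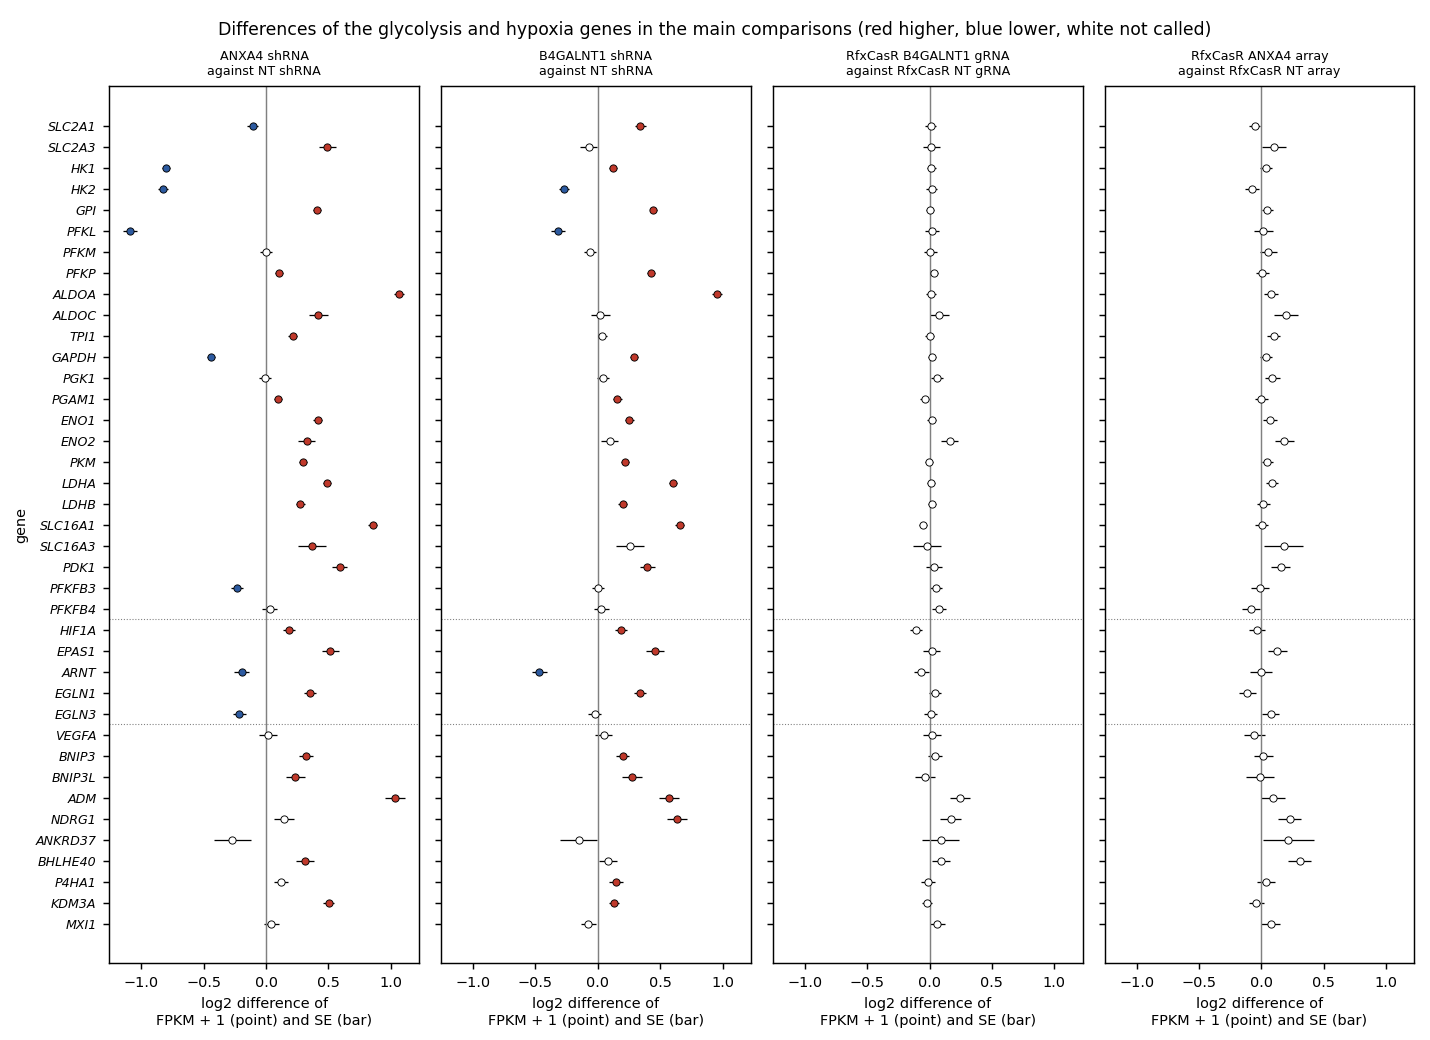
Log2 difference (point) and standard error (bar) of the 39 tested genes in the 4 comparisons of a target with its own control, from limma on log2(FPKM + 1); red is called higher, blue called lower, white not called. The ANXA4 shRNA panel has 23 red and 8 blue points, the B4GALNT1 shRNA panel 22 red and 3 blue, and the gRNA and array panels are all white; array groups are compared as labelled.

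Whether the effect of targeting B4GALNT1 differed between the shRNA and the gRNA was tested directly, as the shRNA difference minus the gRNA difference. It was called higher for 18 of the 39 genes and lower for 3, where 12.9% of all genes were called higher and 16.9% lower, 29.8% in all. Median centring gave 2231 higher and 1821 lower calls over all genes, in place of 1760 and 2318, and 21 and 3 among the 39. ALDOA differed by 0.94 log2, SLC16A1 by 0.71 and LDHA by 0.59. HK2 (-0.29), PFKL (-0.34) and ARNT (-0.40) were the 3 lower. The test uses the difference between the NT shRNA and NT gRNA libraries as well as the targets.

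Those controls were also compared with each other. With the NT gRNA 16 of the 39 genes were higher than with the NT shRNA and 8 were lower, where 22.4% of all genes were called higher and 26.5% lower, 48.9% in all. The groups did not overlap in 29 of the 39, against 60.7% of all genes. With median centring the calls over all genes were 3698 higher and 2860 lower, in place of 3066 and 3621. ALDOA was 1.04 log2 higher, NDRG1 0.70, EPAS1 0.69, SLC16A1 0.58, LDHA 0.46 and GPI 0.43. ARNT (-0.58), PFKL (-0.39) and HIF1A (-0.26) were lower. The ALDOA differences against the NT shRNA, all on the same 3 control libraries, were thus 1.07, 0.95 and 1.04 log2 for the ANXA4 shRNA, the B4GALNT1 shRNA and the NT gRNA. For GAPDH they were -0.44, 0.29 and 0.23, for LDHA 0.49, 0.60 and 0.46, and for HK2 -0.83, -0.27 and -0.15. In 7 of the 39 genes (GPI, ALDOA, PKM, LDHA, LDHB, SLC16A1 and EPAS1) the 3 NT shRNA libraries lay below all 18 others. That is 17.9% of them, against 6.94% of all genes. In HK2, PFKL and ARNT they lay above all others (7.69%, against 9.25% of all genes). Markers of HEK identity summed to 612 to 631 FPKM with the NT shRNA and to 773 to 939 in the other groups, and their part in these differences was not tested.

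The shRNAs were set against each other without the NT shRNA libraries in the contrast. With the ANXA4 shRNA, 13 of the 39 genes were higher than with the B4GALNT1 shRNA and 10 were lower, where 27.1% of all genes were called higher and 19.6% lower, 46.7% in all. The groups did not overlap in 24 of the 39, against 56.4% of all genes. With median centring these counts became 10 and 12, and over all genes 2966 and 3216 in place of 3704 and 2680. HK1 (-0.92 log2), PFKL (-0.77), GAPDH (-0.73), HK2 (-0.56) and NDRG1 (-0.49) were lower with the ANXA4 shRNA. SLC2A3 (0.56), ADM (0.47), ALDOC (0.40), KDM3A (0.37) and BHLHE40 (0.23) were higher. ALDOA differed by 0.11 log2 (limma adjusted p = 0.0322), a call lost under 8 settings at that threshold, among them median centring (limma adjusted p = 0.197) and leaving out ANXA4 shRNA replicate 2 or 3 or B4GALNT1 shRNA replicate 1 or 2 (0.0845 to 0.124). The 3 ANXA4 shRNA libraries lay above all 18 others in 10 of the 39 genes (25.6%, against 9.51% of all genes), among them PDK1, BNIP3, ENO1 and TPI1. They lay below all others in SLC2A1, HK1, HK2 and GAPDH (10.3%, against 7.61% of all genes).

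Isozymes of the same step shifted relative to each other. PFKL made up 47.7% ± 1.11 (SD, n = 3) of the summed FPKM of PFKL, PFKM and PFKP with the NT shRNA. It made up 28.6% ± 0.223 with the ANXA4 shRNA, 37.1% ± 0.338 with the B4GALNT1 shRNA and 40% ± 0.605 with the NT gRNA. PFKP was then the largest form, at 51.7% ± 0.761, 48.7% ± 0.732 and 42.6% ± 0.612, against 37.1% ± 1.37 with the NT shRNA. The share of SLC2A3 in SLC2A1 plus SLC2A3 went from 56.3% ± 1.17 to 66.2% ± 0.581 with the ANXA4 shRNA and to 49% ± 0.833 with the B4GALNT1 shRNA. For LDHA in LDHA plus LDHB the shares were 37% ± 0.207, 40.5% ± 0.743 and 43.7% ± 1.18. HK2 made up 26.1% ± 0.341 of HK1 plus HK2 with the NT shRNA and 25.4% ± 1.42 with the ANXA4 shRNA, where both genes fell and the libraries overlapped. Its share with the B4GALNT1 shRNA was 21% ± 0.417. The ratio of ALDOA to GAPDH was 0.406 ± 0.00355, 1.15 ± 0.00361 and 0.644 ± 0.00659 in these groups. With the NT gRNA the shares were 51.6% ± 1.35 (SLC2A3), 41.9% ± 0.532 (LDHA) and 24.2% ± 0.83 (HK2), and the ratio was 0.71 ± 0.00584. These were not tested against the NT shRNA. With 3 libraries against 3, the exact two-sided permutation test cannot go below 0.1, which was the p of each shift whose libraries did not overlap. Over the 64 such tests the smallest adjusted p was 0.2. Between the gRNA groups the PFKL, SLC2A3, LDHA and HK2 shares overlapped.

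**Figure D5:**
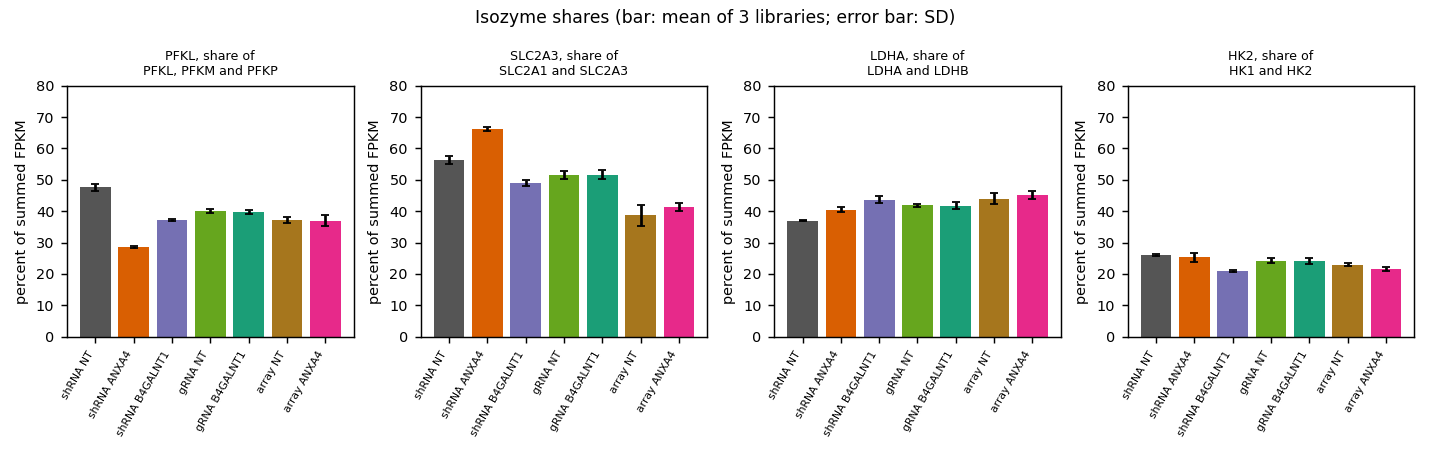
Share of 1 isozyme in the summed FPKM of its family (bars, mean of 3 libraries; error bars, SD) in 7 groups, for phosphofructokinase, glucose transporters, lactate dehydrogenase and hexokinase; array groups are named as labelled. PFKL falls from 47.7% with the NT shRNA to 28.6% with the ANXA4 shRNA, while SLC2A3 goes from 56.3% to 66.2%.

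The 6 array libraries were then compared with the 6 single-guide RfxCasR libraries, whatever their target. This comparison was chosen after values had been seen, and swapped array labels cannot alter it. The fit shared its spread over all 21 libraries, although array replicates differed more from each other. Between array replicates, chi-square per degree of freedom of recovered reads was 5.91 to 13.03, against 2.25 to 3.46 between single-guide replicates. The standard errors and adjusted p-values below may therefore be too small, and the counts of calls too high. Arrays were 7 times called higher and 25 times lower among the 39 genes, where 28.5% of all genes were called higher and 39.3% lower, 67.8% in all. Under median centring the calls over all genes were 5015 higher and 4161 lower, in place of 3895 and 5378, and 11 and 25 among the 39. The median was -0.25 log2 over the 39 genes and -0.047 over all genes. BHLHE40 was at 54.6 to 63.6 FPKM in the single-guide libraries and at 14.0 to 21.7 in the arrays (-1.66 log2, SE 0.051, limma adjusted p = 1.15e-14). ANKRD37, an ankyrin repeat gene, was at 18.4 to 21.7 FPKM against 3.48 to 7.77 (-1.67 log2). NDRG1 was at 65.5 to 79.0 against 26.7 to 37.1 (-1.17 log2). None of these ranges overlapped, as in 24 of the 39 genes and 42.8% of all genes.

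Of the glycolytic genes, PFKFB3 (-0.79 log2), ENO2 (-0.66), PFKL (-0.65), SLC2A3 (-0.64), PFKP (-0.48), PFKM (-0.47), ALDOA (-0.38) and HK2 (-0.33) were lower in the arrays. Among HIF genes ADM (-0.65), EGLN3 (-0.31) and EGLN1 (-0.30) were lower too, and HIF1A was higher (0.51 log2), at 36.5 to 41.3 FPKM against 25.5 to 29.0. LDHA (0.24) and SLC16A1 (0.24) were higher. GAPDH was higher as deposited (0.28 log2) but lower after quantile normalization (-0.16 log2), so that no direction is given for it. In 11 of the 39 genes both array groups lay below all 15 other libraries (28.2%, against 11.9% of all genes). As deposited, they lay above all others in GAPDH alone (2.56%, against 9.31% of all genes). The arrays were sequenced more deeply. The use of an array, depth and any other difference between these sets cannot be told apart here. Fibroblast markers summed to 8.14 to 9.67 FPKM in the arrays and 13.2 to 15.7 in the single-guide libraries, mostly COL1A1 and COL3A1, and their part was not tested.

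Other genes of these pathways were taken from 7 further lists. Of 37 further HIF targets tested, 23 rose and 7 fell with the ANXA4 shRNA, and 14 rose and 4 fell with the B4GALNT1 shRNA. In the arrays 7 were higher and 24 lower than in the single-guide libraries. Over all genes the shares called higher and lower were 25.6% and 26.3%, 18.4% and 26%, and 28.5% and 39.3% in these comparisons. P4HA2, a collagen prolyl hydroxylase, rose by 1.00 and 0.39 log2 with the shRNAs. It was also 0.64 log2 higher with the NT gRNA than with the NT shRNA. GBE1, the glycogen branching enzyme, rose by 0.94 log2 with the ANXA4 shRNA and by 0.67 with the B4GALNT1 shRNA. The adenylate kinase gene AK4 rose with the ANXA4 shRNA by 0.73 log2 and was not called with the other (-0.002). P4HB fell by 0.50 and 0.13 log2. In the arrays DDIT4, an inhibitor of mTORC1 signalling, was lower than in the single-guide libraries (-2.07 log2), as was PPP1R3C, a glycogen-targeting phosphatase subunit (-1.79 log2). The median over these targets was 0.25, 0.098 and -0.28 log2 in the 3 comparisons, against -0.008, -0.038 and -0.047 over all genes.

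Of 15 other regulators of HIF, 6 rose and 4 fell with the ANXA4 shRNA, and 1 rose and 4 fell with the B4GALNT1 shRNA. For this and the lists that follow, the shares over all genes were 25.6% higher and 26.3% lower with the ANXA4 shRNA, and 18.4% and 26% with the B4GALNT1 shRNA, and several of the counts lie near them. CITED2 and HIF1AN, both inhibitors of HIF, rose with the ANXA4 shRNA (0.64 and 0.40 log2) and were not called with the B4GALNT1 shRNA (0.058 and 0.04). EGLN2, a prolyl hydroxylase, rose by 0.36 log2 with the ANXA4 shRNA and fell by 0.18 with the B4GALNT1 shRNA. ARNT2 fell by 0.57 log2 with the B4GALNT1 shRNA and was not called with the ANXA4 shRNA (-0.14). In the arrays VHL, which takes hydroxylated HIF to destruction, was lower than in the single-guide libraries (-0.70 log2). Among 8 genes of glucose-sensing transcription by MondoA and MYC, TXNIP fell by 1.12 log2 with the ANXA4 shRNA and by 1.82 with the B4GALNT1 shRNA. It encodes a glucose-responsive protein that limits glucose uptake. The NT gRNA also differed from the NT shRNA in TXNIP, by -1.025 log2. ARRDC4, its relative, fell by 0.36 and 0.66 log2. MAX, the partner of MYC, fell by 0.78 log2 with the ANXA4 shRNA and was not called with the B4GALNT1 shRNA (-0.076). Over the list 1 rose and 4 fell with the ANXA4 shRNA, and 2 rose and 4 fell with the B4GALNT1 shRNA.

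Of 16 other glycolytic isoforms and branch enzymes tested, 5 rose and 3 fell with the ANXA4 shRNA and 2 rose and 5 fell with the B4GALNT1 shRNA. PGM1, phosphoglucomutase, rose by 0.64 and 0.39 log2. Of 7 pentose phosphate genes, 1 rose (TKT, transketolase, 0.19 log2) and 3 fell with the ANXA4 shRNA, and 3 rose (TKT by 0.26) and 1 fell with the B4GALNT1 shRNA. Of 13 genes for the entry of pyruvate into mitochondria, 3 rose and 5 fell, and 2 rose and 5 fell. MPC1 and MPC2, the subunits of the mitochondrial pyruvate carrier, went opposite ways with the ANXA4 shRNA (-0.58 and 0.39 log2) and with the B4GALNT1 shRNA (-0.25 and 0.39). Of 18 citrate cycle genes, 7 rose and 6 fell, and 7 rose and 2 fell. SDHD, a subunit of succinate dehydrogenase, rose by 0.73 and 0.82 log2, and CS, citrate synthase, by 0.50 and 0.63. The NT gRNA libraries were also above the NT shRNA libraries in SDHD (0.82 log2), CS (0.55), MPC2 (0.485), PGM1 (0.33) and TKT (0.30). Such changes are therefore not particular to the targeting shRNAs. With the B4GALNT1 gRNA and between the array groups, limma called 0 genes of these 7 lists.

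CA9, carbonic anhydrase IX, is among the most HIF-dependent genes known and was close to absent here. It had 0 recovered reads in each of the 3 NT shRNA libraries, where 3 reads, the upper limit that a count of 0 allows, would be 0.0803 to 0.0856 FPKM. It had 7, 4 and 12 reads with the ANXA4 shRNA and 6, 8 and 2 with the B4GALNT1 shRNA. The NT gRNA libraries had 0, 4 and 0, the B4GALNT1 gRNA libraries 0, 2 and 4, and the 6 array libraries 1 read in all. The highest level was 0.344 FPKM. These limits cover counting error only.

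Some transcripts lie inside the genes described and can share reads with them on the same strand. The microRNA gene MIR6728 in ENO1 had 276 to 379 FPKM, and the other same-strand neighbours had up to 9.24 FPKM. The pseudogene TPI1P2 had 3.22 to 6.54 FPKM against 952 to 1143 for TPI1, so that reads of near-identical copies could have been split between them.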

How the data were processed

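Stranded mRNA libraries were made for 21 samples with a directional kit, per the labels' protocols. FastQC, STAR, HOMER and DESeq2 1.14.1 with R 3.3.2 and hg19 are named in the submitters' processing notes. Per the file headers, HOMER counted exon reads on the plus strand setting, condensed to genes, and the authors deposited FPKM values. The deposited score column gives each transcript's exon length. The authors' 4 comparison tables hold a mean normalized count (signal), a log2 fold change and p-values, all as deposited.

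The levels were taken as log2(FPKM + 1), with a pseudocount of 1, for 13679 genes at 1 FPKM or more in at least 3 libraries. They were fitted with limma 3.58.1 (variance trend, 7 group means over 21 libraries), with Benjamini-Hochberg adjustment over all genes and calls under 0.05. The array groups were compared with each other over their 6 libraries alone. Intervals are 95%. FPKM times exon length gave whole reads (within 0.1) for 100.0% of the values checked, and these recovered reads gave the depths and a voom fit. Ratios were compared by exact two-sided permutation. The fitting code was tested on simulated data.

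All 40 genes are accounted for. Those called were named in order of adjusted p, up to 8 per direction in a comparison, and other genes of the list were named for their role. ALDOA, GAPDH, LDHA and HK2 are given in each comparison of a target with its control. From further lists up to 3 called genes of lowest adjusted p were named, with the same genes' values in the other shRNA comparison. One gene that this rule names is not reported here. The genes and lists were chosen with earlier results of these data known. Alternatives were other pseudocounts, filters, normalizations, thresholds, voom, the authors' tables, a replicate block and leaving out each library. Replicate numbers are shared between groups. The deviations of same-numbered samples from their group means correlated at -0.146 to 0.09, so the samples were not treated as pairs. No genome of hg19 was used here.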

Additional observations from a re-analysis of the deposited data

Results flagged for a closer look

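The effect of targeting B4GALNT1 differed between the shRNA and the gRNA for 21 of the 39 genes. These were called by a limma test of the difference itself (adjusted p = 1.01e-09 to 0.0438). Over all genes tested 29.8% were called. Among glycolytic genes the shRNA effect was higher on the log2 scale by 0.942 for ALDOA, 0.709 for SLC16A1, 0.591 for LDHA, 0.441 for GPI, 0.388 for PFKP, 0.364 for PDK1 and 0.329 for SLC2A1. It was also higher by 0.271 for GAPDH, 0.235 for ENO1, 0.225 for PKM, 0.195 for PGAM1 and 0.178 for LDHB. The difference was -0.289 for HK2 and -0.339 for PFKL.

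Among HIF genes the difference was 0.466 for NDRG1, 0.442 for EPAS1, 0.32 for ADM, 0.309 for BNIP3L, 0.291 for HIF1A, 0.29 for EGLN1 and -0.404 for ARNT. The call of BNIP3L was lost under 14 settings (limma adjusted p = 0.0514 to 0.0969), among them leaving out any of the 12 libraries but B4GALNT1 shRNA replicate 2. The call of ADM was lost under 9 (limma adjusted p = 0.0582 to 0.106): without a low-value filter, and without replicate 1 or 3 of the NT shRNA or of the NT gRNA, replicate 2 or 3 of the B4GALNT1 shRNA, or replicate 1 or 2 of the B4GALNT1 gRNA. That of LDHB was lost under 1 (limma adjusted p = 0.145). All of these values rest on the same 3 NT shRNA libraries, set against 3 NT gRNA libraries.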

How the results depend on the processing

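Counts of called genes, higher and lower together, stayed within 1.5 times in 269 of 270 other settings and in 180 of 180 that left out a library. The exception was the NT gRNA against the NT shRNA, where 7 HIF genes in place of 11 were called at an adjusted p under 0.01. Over all other settings the 39 genes gave 27 to 33 calls with the ANXA4 shRNA and 23 to 27 with the B4GALNT1 shRNA, and 27 to 30 and 23 to 24 when 1 library was left out. Under the replicate block the counts were 31, 24, 0 and 0 for the ANXA4 shRNA, the B4GALNT1 shRNA, the gRNA and the arrays. The samples share only a number. In the gRNA comparison alone, every sample's deviations from its group mean correlated best with those of its own number.

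The call of a single gene was lost in 53 of 1830 other settings and in 64 of 1302 that left out a library. Directions turned only for differences near 0 or under quantile normalization and the authors' tables. With the B4GALNT1 gRNA, quantile normalization gave ALDOA -0.009 and GAPDH -0.053 log2. When each library was left out in turn, the gRNA difference ran from -0.017 (without B4GALNT1 gRNA replicate 3) to 0.042 for ALDOA, from -0.002 (the same library) to 0.029 for GAPDH, from -0.001 (the same library) to 0.025 for LDHA, and from -0.015 (without B4GALNT1 gRNA replicate 1) to 0.052 for HK2. Between the array groups GAPDH was -0.021 by quantile normalization, and the authors' deposited table gives ALDOA -0.07, GAPDH -0.028, LDHA -0.071 and HK2 0.088. Arrays against single guides turned for GAPDH (-0.163), PGAM1 (-0.019) and LDHB (-0.055) by quantile normalization, which gave 2 glycolytic genes higher and 19 lower. Between the shRNAs, median centring gave 6 glycolytic genes higher and 10 lower, in place of 9 and 8. For the NT gRNA against the NT shRNA, without NT shRNA replicate 3, 4 HIF genes were higher and 4 lower, in place of 7 and 4. The cause was not tested. With 3 libraries a group, small differences could not be detected: the intervals above bound them.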
